A study of Arabidopsis thaliana with 21 samples.

Results

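The 76 genes described here are those of Arabidopsis thaliana seeds whose transcript level differed between ethylene and water in opposite directions early and late in imbibition. They were chosen by level in CPM, the sense reads of a gene scaled to a common total of reads counted on genes. A gene was kept when the mean over 3 libraries reached 3 CPM in at least 1 of the 6 h groups and in at least 1 of the 24 h groups. Its ratio of mean CPM, ethylene over water, also had to be at least 1.5 at one of these times and at most 0.67 at the other. Of 37336 genes counted, 13224 passed the level condition, and 28 of these were higher with ethylene at 6 h and lower at 24 h, while 48 were lower at 6 h and higher at 24 h. A further 3 genes named in the rule were left out. Because the 6 h and 24 h values chose the genes, they are given below as descriptions and no test is drawn from them, while the 16 h and dry-seed libraries had no part in the choice.

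Ethylene is a gaseous plant hormone that is sensed by receptors in the endoplasmic reticulum, and its presence stabilises the transcription factor EIN3, which switches on genes of the ethylene response factor (ERF) family. In seeds it is known to act against abscisic acid, the hormone that maintains dormancy, and to promote germination, which ends when the young root breaks through the endosperm and seed coat. Germination involves the loosening of cell walls by expansins and xyloglucan-modifying enzymes, the loss of transcripts stored during seed maturation and the start of seedling gene expression.

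The samples were wild type (WT) seeds, without a stated seed lot or ethylene concentration in the sources used here. They formed 7 groups of 3 libraries each, namely dry seeds, water for 6, 16 and 24 h, and ethylene for 6, 16 and 24 h of imbibition. Replicates are called biological in the design text, with no word on separate seed lots, so a p-value speaks only for the spread among these libraries, possibly a technical one. Libraries held 11687098 to 21198649 reads on genes.

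One library stood apart from its label. In the library labelled ethylene 16 h replicate 2, the level of 28 of the 28 genes higher at 6 h, and of 47 of the 48 genes lower at 6 h, was nearer to the water 16 h mean than to the mean of ethylene 16 h replicates 1 and 3. The same held for 12235 of all 13224 genes past the level condition. The 16 h tests are therefore given with and without it. The labelled tissue was checked against marker genes. The summed level of 6 seed markers, cruciferins, an oleosin, a 2S albumin and desiccation proteins among them, was 71189 to 73952 CPM in dry seeds, 108974 to 118546 CPM in water at 24 h and 699 to 1019 CPM with ethylene at 24 h. The summed level of 4 endosperm markers, which include the chosen genes MFT and EXPA2, was 5706 to 6152 CPM in water and 1473 to 1718 CPM with ethylene at 24 h. Its members went opposite ways, since at 24 h EPR1 had a mean of 5785 CPM in water and 764 CPM with ethylene, CYP707A2 19.3 and 3.09 CPM and MFT 93.7 and 20.1 CPM, but EXPA2 93.6 and 768 CPM. At 6 h both sums were much closer between the treatments, with 23554 to 25174 against 22198 to 22873 CPM for seed markers. The 5 leaf markers summed to 463 to 605 CPM in water and 1381 to 1533 CPM with ethylene at 24 h. RBCS1A made up most of that sum, at means of 458 and 1411 CPM, while LHCB1.1 was at 41.5 and 0.0325 CPM and LHCB2.1 at 1.94 and 0.0479 CPM, lower with ethylene. The 3 flower and pollen markers stayed at or below 0.266 CPM in each library, and AP1 was at 0 in 21 of 21. In RNA from whole seeds, fewer cells of a type and less RNA per cell cannot be told apart, and the part of tissue composition in the results below was not tested.

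Reversal was one of several courses open to an early difference. At 6 h, 227 of the 13224 genes (1.72%) had a ratio of at least 1.5, and 28 of them (12.3%) had a ratio of at most 0.67 at 24 h, while 169 (74.4%) were still at 1.5 or more. Over all 13224 genes 23.2% had a ratio of at most 0.67 and 33.5% a ratio of at least 1.5 at 24 h. Of the 165 genes (1.25%) with a ratio of at most 0.67 at 6 h, 48 (29.1%) had a ratio of at least 1.5 at 24 h, and 101 (61.2%) remained at 0.67 or less. Most early differences thus kept their side at 24 h, as the plot of the ethylene effect at both times shows. Values of the 3 ethylene and 3 water libraries did not overlap at either time in any of the 76 genes. Over all 13224 genes the ethylene libraries lay wholly above water in 17.8% and wholly below in 13.3% at 6 h, and in 49.8% and 37% at 24 h, and since the rule used these libraries nothing is read from the members' count.

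**Figure D1:**
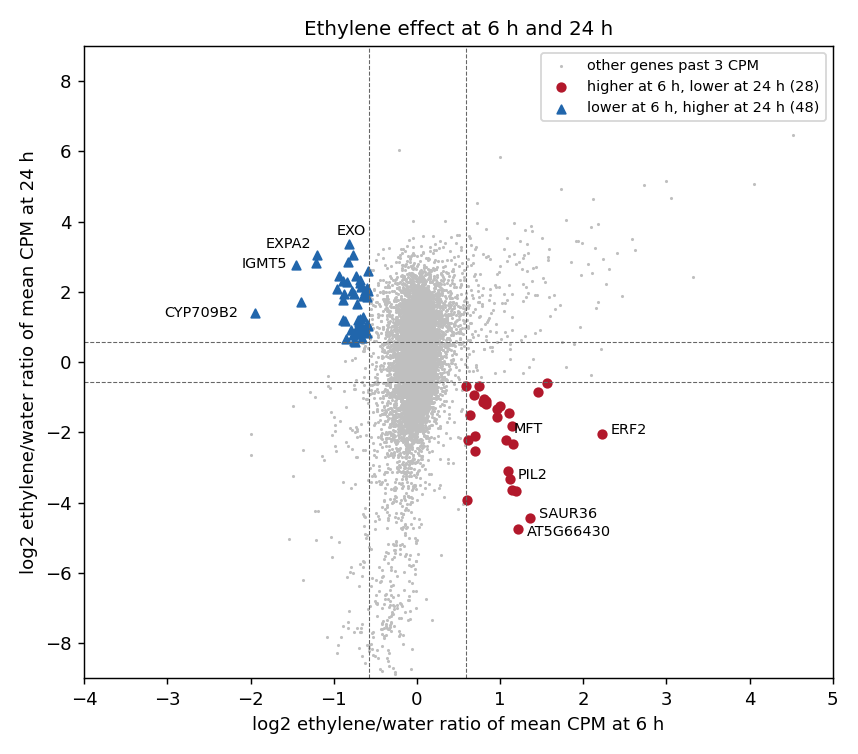
Each point is a gene past the level condition, with the log2 ratio of mean CPM, ethylene over water (3 libraries each), at 6 h on the horizontal and at 24 h on the vertical axis. Dashed lines mark ratios of 1.5 and 0.67, circles the 28 genes higher at 6 h and lower at 24 h, and triangles the 48 genes lower at 6 h and higher at 24 h; ERF2 lies farthest to the right and CYP709B2 farthest to the left among them.

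The genes that were higher with ethylene at 6 h and lower at 24 h included 2 members of group IX of the ERF family, ERF2 and ERF-1, which encode activators that bind the GCC box of target promoters. ERF2 (AT5G47220) was at 5.18, 5.57 and 4.26 CPM in the water libraries at 6 h (replicates 1, 2 and 3) and at 21.4, 23.2 and 25.7 CPM in the ethylene libraries. By 24 h the order was turned, with 12.7, 11.9 and 15.1 CPM in water and 2.74, 2.94 and 3.82 CPM with ethylene. The mean was thus 4.69-fold higher at 6 h and 4.17-fold lower at 24 h. The level was higher at 24 h than at 6 h in the water libraries and far lower with ethylene. ERF-1 (AT4G17500) was at 46.9, 45.8 and 41.6 CPM in water and 83.2, 88 and 90.7 CPM with ethylene at 6 h. At 24 h it was at 11, 8.81 and 10.9 and 4.49, 3.72 and 4.02 CPM. Here the level was lower at 24 h than at 6 h in both treatments, and more so with ethylene, and the ratio went from 1.95 to 0.399.

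The promoters of these 2 genes are printed because they share a stretch of sequence. Both windows hold the 250 bases before the annotated gene start in the RefSeq assembly TAIR10.1, written 5′ to 3′ on the gene's strand, with capitals marking CACGTG, the G box, and ACGTGT, the core of an abscisic acid response element. These 2 motifs overlap in CACGTGT.
ERF2 chr5:19172957-19173206 (minus strand): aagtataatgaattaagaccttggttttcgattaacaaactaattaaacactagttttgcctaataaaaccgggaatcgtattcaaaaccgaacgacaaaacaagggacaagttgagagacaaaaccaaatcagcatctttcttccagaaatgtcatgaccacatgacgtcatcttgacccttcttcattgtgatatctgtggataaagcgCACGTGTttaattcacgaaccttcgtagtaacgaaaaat
ERF-1 chr4:9758953-9759202 (plus strand): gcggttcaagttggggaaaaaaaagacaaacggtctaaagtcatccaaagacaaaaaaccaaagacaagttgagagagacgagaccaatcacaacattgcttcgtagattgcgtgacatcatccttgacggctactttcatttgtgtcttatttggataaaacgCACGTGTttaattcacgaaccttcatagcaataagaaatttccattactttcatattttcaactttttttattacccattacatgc
The longest stretch common to both was cgCACGTGTttaattcacgaaccttc, 26 bases that begin 41 bases before the start of ERF2 and 88 bases before that of ERF-1. It was found in 2 of 37049 promoter windows searched, those of ERF2 and ERF-1. Because the stretch was picked as the longest shared by these 2 windows, nothing is read from that count. A link of the stretch to the reversal was not tested. Neither window held the GCC box letters GCCGCC.

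Of 13 genes listed for group IX, 4 passed the level condition. Of these 3, ERF2 and ERF-1 among them, had a ratio of at least 1.5 at 6 h, against 1.72% of all genes. Of 8 group members tested at 16 h with edgeR's quasi-likelihood method 2 were called higher and 1 lower (5 and 1 of 9 without the library labelled ethylene 16 h replicate 2), and neither ERF-1 nor, with all libraries, ERF2 was among them. Of all genes tested, 31.7% were called higher and 18.5% lower, or 42% and 32.7% without that library. ERF2 was at 10.3, 10.5 and 12.4 CPM in water at 16 h, at 15.8 and 15.2 CPM in replicates 1 and 3 of ethylene and at 10.8 CPM in the library labelled replicate 2. The log2 fold change was 0.20 ± 0.15 (± SE, adjusted p = 0.261, edgeR), and 0.30 ± 0.12 with 0.0261 without that library. ERF-1 had log2 fold changes of -0.05 ± 0.11 (adjusted p = 0.694, edgeR) and 0.06 ± 0.09 (adjusted p = 0.56) at 16 h.

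PIL2 (AT3G62090), a basic helix-loop-helix factor of the phytochrome-interacting factor (PIF) family, had the highest level in water at 24 h among the genes of this direction. At 6 h it was at 32.1, 33.7 and 38.4 CPM in water and 76.5, 77.9 and 71.3 CPM with ethylene. In water it was at 351 to 421 CPM at 16 h and 444, 409 and 457 CPM at 24 h. With ethylene it reached 228 and 199.8 CPM in replicates 1 and 3 at 16 h and was back at 46.2, 42.3 and 41.7 CPM at 24 h, which was 10.06-fold lower than in water. The ethylene libraries were thus highest at 16 h, while the water libraries were high at both later times. At 16 h PIL2 was lower with ethylene than in water in edgeR's test (log2 fold change -0.61 ± 0.22, adjusted p = 0.033). It was at 399.8 CPM in the library labelled replicate 2, and without that library the log2 fold change was -1.07 ± 0.08 (adjusted p = 3.37e-13). Among the 8 genes listed for the PIF family 4 passed the level condition. Of these 2, PIL2 and PIF3, had a ratio of at least 1.5 at 6 h, against 1.72% of all genes. PIF3 had a ratio of 3.82 at 24 h and did not reverse.

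MFT (AT1G18100), a phosphatidylethanolamine-binding protein known in Arabidopsis as a regulator of germination in the abscisic acid and gibberellin pathways, was also far higher in water at 16 h and 24 h than at 6 h. It was at 31.7, 27 and 29 CPM in dry seeds. At 6 h it was at 13.1, 11.6 and 13.5 CPM in water and 25.9, 28.5 and 25.6 CPM with ethylene, with no overlap. At 24 h the water libraries held 100.03, 91.4 and 89.6 CPM and the ethylene libraries 18.3, 19.4 and 22.6 CPM, a mean 4.66-fold lower. At 16 h MFT was lower with ethylene than in water, with a log2 fold change of -0.81 ± 0.25 (adjusted p = 0.0219, edgeR), or -1.39 ± 0.08 (adjusted p = 5.32e-15) without the library labelled replicate 2. Its forward-strand reads, which come from the opposite strand, were 9.90% of its reads.

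NAC102 (AT5G63790), a NAC factor known in Arabidopsis from germination under low oxygen, had a dry level of 92.2 to 99.99 CPM and was 1.78-fold higher with ethylene at 6 h (26.2, 26.1 and 27.3 against 16.5, 13.8 and 14.6 CPM). At 24 h it was 2.16-fold lower, at 8.59, 9.56 and 7.29 against 17, 18 and 19.96 CPM. MYB31 (AT1G74650), a MYB factor, had the second largest ratio at 6 h, 2.97 (5.6, 5.41 and 5.65 against 1.6, 2.2 and 1.82 CPM), and only just met the rule at 24 h with 0.668. KNATM (AT1G14760), a KNOX-type protein that lacks the DNA-binding homeodomain, was 1.56-fold higher at 6 h (31.7 to 33.6 against 19.3 to 23.1 CPM) and 2.86-fold lower at 24 h. AT1G36060, annotated as an integrase-type DNA-binding protein, was 2.16-fold higher at 6 h and 2.75-fold lower at 24 h, although its ethylene level was nearly the same at both times, 77.5, 76.9 and 74.8 and 84.4, 72 and 77.2 CPM. In that gene it was the water libraries that differed between the times, going from 33.1, 35.3 and 37.8 to 218, 205 and 220.5 CPM.

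Enzymes and cell wall genes made up another group among the 28. XTH11 (AT3G48580), a xyloglucan endotransglucosylase that cuts and rejoins wall polymers, was at 81.6, 84 and 88.1 CPM in water and 201, 181 and 179 CPM with ethylene at 6 h. At 24 h it was at 151, 141 and 144 and 36, 43 and 45.4 CPM, so the 2 treatments had exchanged places with no overlap. At 16 h it was lower with ethylene than in water (log2 fold change -0.46 ± 0.17, adjusted p = 0.0359 in edgeR, and -0.76 ± 0.07 with 2.85e-10 without the library labelled replicate 2). FDH (AT5G14780), the mitochondrial formate dehydrogenase, was the most abundant of the 28 at 6 h, with 526, 514 and 536 CPM with ethylene and 341, 313 and 317 CPM in water, and stood at 33.9, 40.2 and 41.4 and 167, 167 and 164 CPM at 24 h. FAH1 (AT4G36220), a ferulate hydroxylase of the phenylpropanoid pathway, was 2-fold higher at 6 h (13.6, 13.9 and 17.8 against 7.77, 7.72 and 7.22 CPM) and 2.39-fold lower at 24 h (23.5, 23.1 and 23.3 against 53.9, 57.9 and 54.8 CPM). It was still higher at 16 h, at 84.4 and 78.4 CPM in ethylene replicates 1 and 3 against 47.4, 47.2 and 52.7 CPM in water, and rose in edgeR's test (log2 fold change 0.37 ± 0.14, adjusted p = 0.0388, and 0.55 ± 0.07 with 3.08e-08 without the library labelled replicate 2). SEH (AT2G26740), a soluble epoxide hydrolase, was 1.94-fold higher at 6 h and 2.94-fold lower at 24 h, and the cytochrome P450 gene CYP71B14 (AT5G25180) 2.2-fold and 12.6-fold. For CYP71B14 the libraries with ethylene went from 120.4, 106 and 96.1 CPM at 6 h to 8.55, 8.74 and 9.25 CPM at 24 h while those in water went from 43.9, 47.3 and 54.9 to 117, 105 and 111 CPM.

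The lowest ratios at 24 h were in genes with few reads in the ethylene libraries. SAUR36 (AT2G45210), of the small auxin up RNA family, was at 22.9, 22.7 and 23.6 against 8.38, 9.24 and 9.3 CPM at 6 h and at 0.567, 0.483 and 1.01 against 15.7, 13.4 and 15.7 CPM at 24 h, where 42 reads in all remained in the 3 ethylene libraries. AT5G66430, annotated as a methyltransferase, had the lowest ratio at 24 h, a mean 26.9-fold lower (0.472, 0.338 and 0.754 against 13.4, 15 and 13.7 CPM) after 2.33-fold higher at 6 h. RTFL12 (AT4G13395), a small peptide of the ROTUNDIFOLIA-like family, was 2.28-fold higher at 6 h and 12.7-fold lower at 24 h. AT1G21400, a thiamin diphosphate-binding protein, only just met the rule at 6 h, with 5.17, 5.77 and 4.13 against 3.5, 3.18 and 3.27 CPM. It was 15.3-fold lower at 24 h, with 1.37, 1.45 and 1.21 against 21.7, 18 and 21.8 CPM, so its late difference was much the larger. Of 80 genes listed as SAUR 13 passed the level condition. Of these 5 had a ratio of at least 1.5 at 6 h, against 1.72% of all genes, and SAUR36 was the 1 that reversed.

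**Figure D2:**
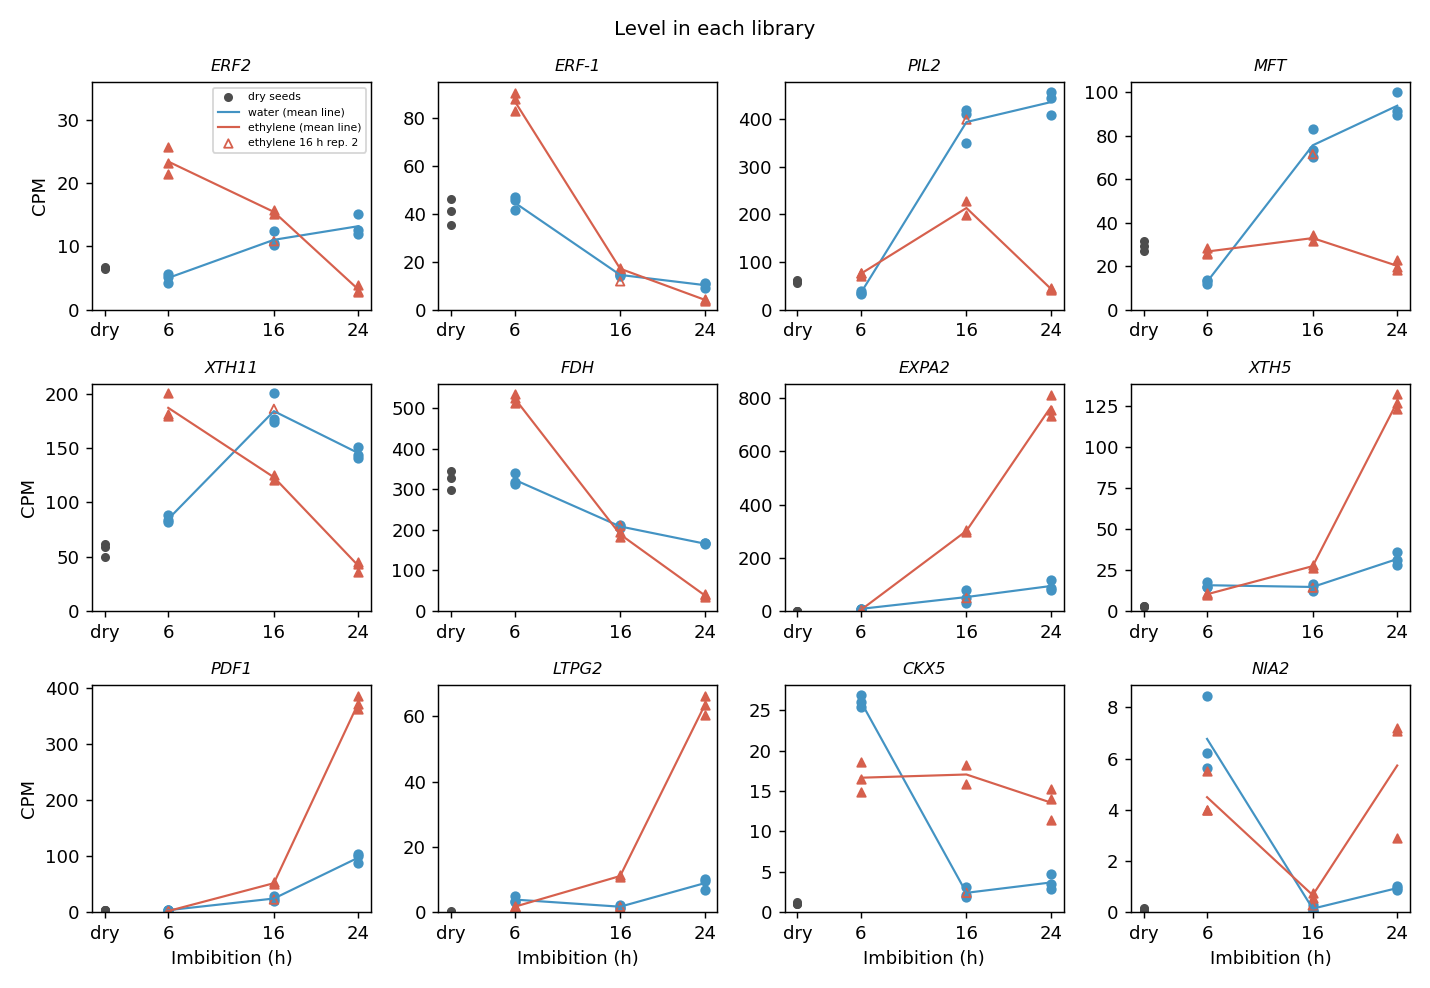
CPM in each library (vertical axis, from 0) against hours of imbibition for 12 of the 76 genes, with dry seeds at the left. Circles are water and triangles ethylene libraries, lines join the group means, and the open triangle is the library labelled ethylene 16 h replicate 2, which the line leaves out; in each panel the lines cross between 6 h and 24 h.

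Over the 28 genes the median of the group means was 17.96 CPM in water at 6 h, 22.1 at 16 h and 23.7 at 24 h, and with ethylene 29.7, 15.5 and 8.43 CPM. The mean was higher at 24 h than at 6 h in 20 of the 28 genes in water and in 3 with ethylene. Ethylene at 24 h was the lowest of the 7 groups in 21 of the 28 genes, and the highest group was dry seeds in 10, ethylene at 6 h in 9, water at 24 h in 5 and ethylene at 16 h in 4. Over all 13224 genes ethylene at 24 h was lowest in 2653. The highest group was dry seeds in 1401 of them, ethylene at 6 h in 2376, water at 24 h in 1346 and ethylene at 16 h in 1549. Their mean was higher at 24 h than at 6 h in 5991 in water and in 6281 with ethylene. Since the rule used the 6 h and 24 h libraries, these places only describe the genes. Places against dry seeds depend on the scaling, since in these CPM the median of all genes was 13.3 in dry seeds and 27.4 in water at 6 h. In most of the 28 genes the reversal thus lay in a lower level with ethylene at 24 h beside a level in water that was similar or higher.

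The 16 h libraries show where these genes stood between the 2 times used for the choice. With all libraries edgeR called 13 of the 28 lower with ethylene and 2 higher, against 18.5% and 31.7% of 18806 genes tested. Leaving out the library labelled ethylene 16 h replicate 2, it called 19 lower and 7 higher, against 32.7% and 42% of 19091 genes. The 15 genes called with all libraries were called in the same direction without it. The median log2 fold change of the 28 was -0.36, and -0.55 without that library, beside 0.08 and 0.11 over all genes tested. The higher calls were AT1G72900, a protein with a Toll-interleukin receptor domain, and FAH1, and without that library also ERF2, MYB31, AT1G15125, AT1G19230 and AT4G27900. For AT1G72900 the ethylene libraries held 11.1 and 10.3 CPM (replicates 1 and 3) and 3.25 CPM (replicate 2), against 2.26, 1.84 and 2.08 CPM in water, a log2 fold change of 1.84 ± 0.33 (adjusted p = 0.00785, edgeR), or 2.19 ± 0.17 (adjusted p = 1.81e-12) with replicate 2 left out. Only ERF-1 and AT2G39210, a major facilitator protein, were called in neither fit. The counts depended on single libraries. Without ethylene replicate 1 or 3 or water replicate 3, 0 were called lower and 1 higher. Without water replicate 2 these were 1 and 1, and without water replicate 1 they were 9 and 1. Calls over all genes fell too. Without ethylene replicate 1, ethylene replicate 3 and water replicate 3, 0.262, 0.194 and 1.74% were lower and 7.46, 5.39 and 16.3% higher. Without water replicates 2 and 1, 4.73 and 9.88% were lower and 21.3 and 25.3% higher.

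The lowest log2 fold changes at 16 h, without the library labelled replicate 2, were those of AT1G21400, AT1G19530, AT5G66430 and AT3G15450. AT1G19530 was at 434, 472 and 458 CPM in dry seeds, at 124, 128 and 137 CPM in water at 16 h, at 18.3 and 19.9 CPM in replicates 1 and 3 of ethylene and at 126 CPM in the library labelled replicate 2. Its log2 fold change was -1.29 ± 0.54 (adjusted p = 0.0569, edgeR), and -2.94 ± 0.09 (adjusted p = 2.28e-21) without that library. AT1G21400 was lower with ethylene than in water in both fits (-1.41 ± 0.56, adjusted p = 0.0471, and -3.20 ± 0.16, adjusted p = 7.25e-17, edgeR). AT5G66430 was at 244, 216 and 225 CPM in dry seeds and had log2 fold changes of -1.22 ± 0.54 (adjusted p = 0.0682) and -2.88 ± 0.16 (adjusted p = 1.4e-15). AT3G15450, annotated as an aluminum-induced protein, was lower with ethylene in both fits as well (-0.92 ± 0.33, adjusted p = 0.0355, and -1.76 ± 0.11, adjusted p = 1.24e-14).

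**Figure D3:**
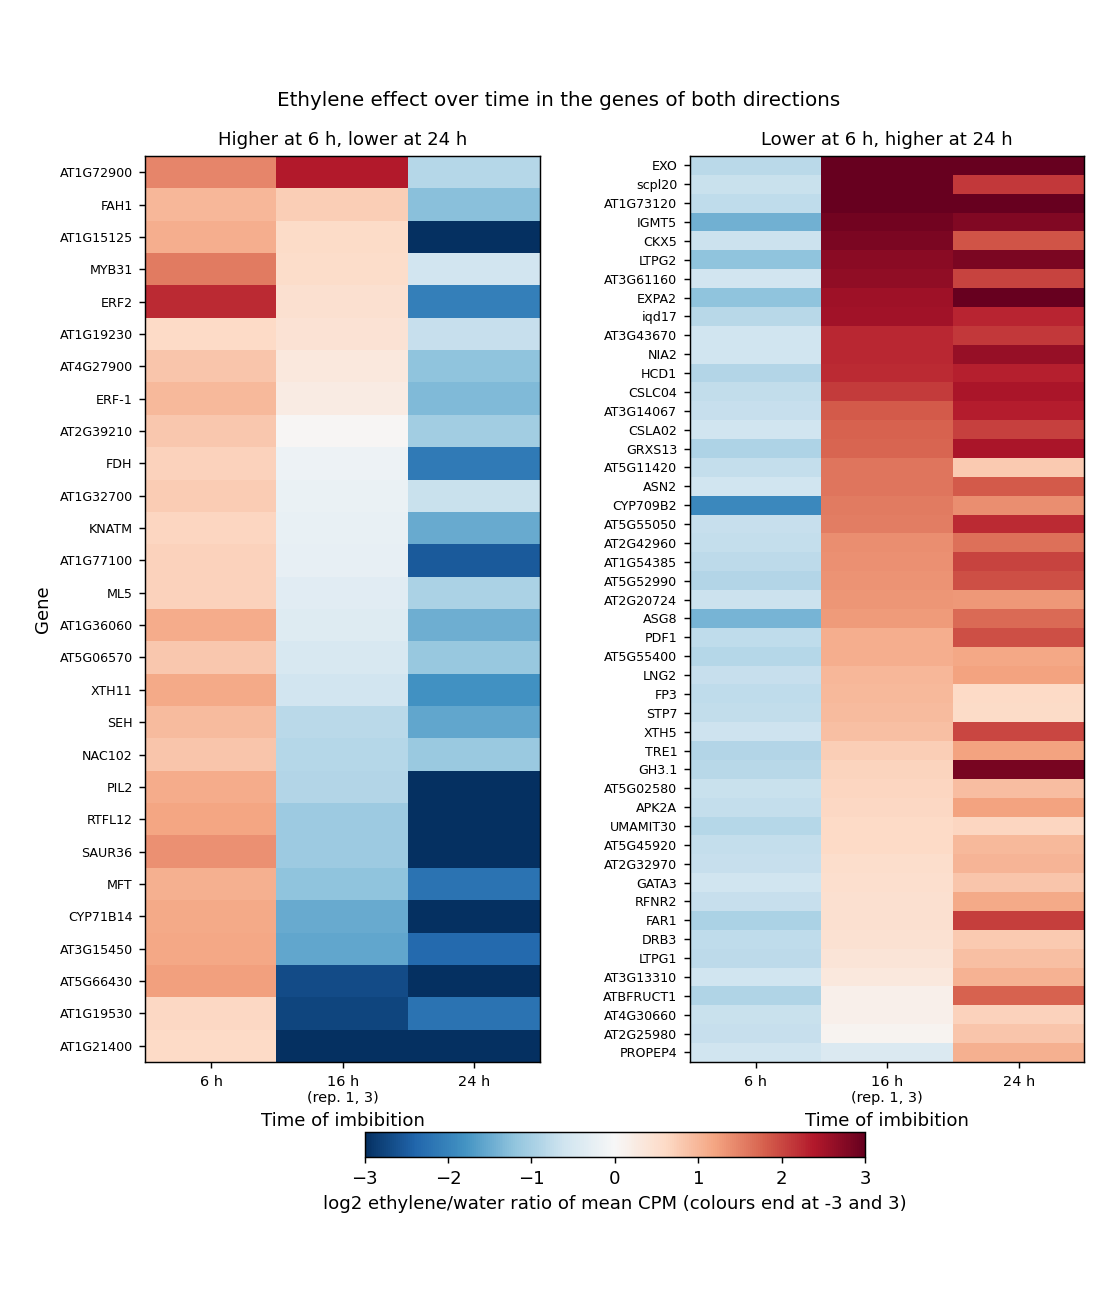
Colour gives the log2 ratio of mean CPM, ethylene over water, at 6, 16 and 24 h (columns) for each gene (rows) of the 28 higher at 6 h (left) and the 48 lower at 6 h (right), with the 16 h ethylene mean from replicates 1 and 3. Rows are ordered by the 16 h ratio, and at 16 h most genes of both panels already have the colour of 24 h.

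The 48 genes that were lower with ethylene at 6 h and higher at 24 h held several genes of the cell wall. EXPA2 (AT5G05290), an alpha-expansin known in Arabidopsis from the endosperm of germinating seeds, had the largest level with ethylene at 24 h. At 6 h it was at 6.7, 7.72 and 8.31 CPM in water and 2.75, 3.52 and 3.64 CPM with ethylene. At 24 h it was at 87.4, 116 and 76.9 CPM in water and 734, 814 and 754 CPM with ethylene. The ethylene libraries were thus 2.3-fold lower and then 8.2-fold higher, with no overlap at either time. Already at 16 h it rose with ethylene, at 297 and 306 CPM in replicates 1 and 3 and 48.1 CPM in the library labelled replicate 2 against 76.8, 49 and 30.3 CPM in water (log2 fold change 1.90 ± 0.46, adjusted p = 0.00887 in edgeR, and 2.37 ± 0.16 with 1.94e-13 without that library). All 8 alpha-expansin genes past the level condition had a ratio of at least 1.5 at 24 h, against 33.5% of all genes, and EXPA2 was the 1 of them with a ratio of at most 0.67 at 6 h. Of 12 tested alpha-expansins 9 were called higher with ethylene and 0 lower at 16 h, against 31.7% and 18.5% of all genes. Without the library labelled replicate 2 these were 10 and 1, against 42% and 32.7%.

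XTH5 (AT5G13870) carries out the same reaction as XTH11 and had the opposite pattern. It was at 17.5, 14.8 and 14.8 CPM in water and 10.9, 9.55 and 10.03 CPM with ethylene at 6 h, and at 31.3, 35.8 and 28 and 127, 124 and 132 CPM at 24 h. At 16 h it rose (log2 fold change 0.52 ± 0.17, adjusted p = 0.0254, edgeR, and 0.73 ± 0.10, adjusted p = 1.06e-07, without the library labelled replicate 2). Of 33 listed xyloglucan endotransglucosylases 10 passed the level condition, and these 2 were the ones that reversed; 8 of the 10 had a ratio of at least 1.5 at 24 h, against 33.5% of all genes. Enzymes that make wall polymers were also present. CSLC04 (AT3G28180), a glucan synthase of xyloglucan, was 1.66-fold lower at 6 h (5.11, 4.3 and 4.72 against 7.24, 8.41 and 7.8 CPM) and 5.43-fold higher at 24 h (39.9, 38.3 and 33.9 against 6.16, 6.97 and 7.53 CPM). CSLA02 (AT5G22740), a glucomannan synthase, was 1.51-fold lower and 4.12-fold higher, reaching 123, 126 and 126 CPM. EXO (AT4G08950), which promotes cell expansion in the brassinosteroid response, had the highest ratio at 24 h, 10.2 (188, 176 and 171 against 22.8, 15.9 and 13.6 CPM), after 6.14, 2.89 and 5.9 against 11.2, 8.55 and 6.5 CPM at 6 h.

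Of the genes listed here for epidermis and cuticle, PDF1, LTPG1, LTPG2 and FAR1 had this direction. PDF1 (AT2G42840), a proline-rich protein of the outermost cell layer of the shoot, was at 3.81, 3.96 and 3.27 CPM in water and 2.1, 2.2 and 2.21 CPM with ethylene at 6 h. At 24 h it was at 99.9, 104 and 88.7 and 372, 386 and 362 CPM. The level was much higher at 24 h in both treatments, and the ethylene libraries went from wholly below to wholly above water. LTPG2 (AT3G43720), a lipid transfer protein of wax export, was at 5.03, 3.08 and 3.53 and 1.61, 1.63 and 1.77 CPM at 6 h and at 10.3, 9.54 and 6.91 and 66.3, 60.4 and 63.6 CPM at 24 h, water first. Its relative LTPG1 (AT1G27950) was 1.73-fold lower at 6 h (38.7, 37.1 and 39.7 against 68.8, 64.6 and 66.6 CPM) and 1.88-fold higher at 24 h. FAR1 (AT5G22500), a reductase that makes fatty alcohols, was 1.94-fold lower and 4.22-fold higher.

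At 16 h LTPG2 and PDF1 had risen and the other pair had not passed in the fit with all libraries. LTPG2 had a log2 fold change of 2.08 ± 0.46 (adjusted p = 0.00793, edgeR), PDF1 of 0.64 ± 0.19 (adjusted p = 0.0186), LTPG1 of 0.13 ± 0.07 (adjusted p = 0.129) and FAR1 of 0.18 ± 0.20 (adjusted p = 0.455). Omitting the library labelled ethylene 16 h replicate 2, these were 2.53, 0.91, 0.20 and 0.31, and LTPG1 then rose (adjusted p = 0.000625) while FAR1 did not pass (adjusted p = 0.158). Of 20 genes listed for epidermis and cuticle 12 passed the level condition. At 6 h 4 of these had a ratio of at most 0.67 and 0 a ratio of at least 1.5, against 1.25% and 1.72% of all genes. These 4 are the chosen genes named above, and the list was made with earlier results known, so nothing is read from their count. At 24 h 11 of the 12 had a ratio of at least 1.5, against 33.5% of all genes. Of 19 tested at 16 h, 12 were called higher with ethylene and 0 lower (31.7% and 18.5% of all genes), and 16 and 0 without that library (42% and 32.7%). The median log2 fold changes were 1.002 and 1.33 beside 0.08 and 0.11 over all genes.

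The promoters of EXPA2, LTPG2 and PDF1 are shown because each holds the RY motif CATGCA, known from seed genes, which stood in 9 of the 48 promoters (18.8%) and in 3 of the 28 of the other direction (10.7%), against 6.58% of 13218 promoters of genes past the level condition. Capitals mark CATGCA on either strand, written TGCATG where it lies on the opposite strand, in the 250 bases before the gene start of TAIR10.1 from RefSeq.
EXPA2 chr5:1568444-1568693 (plus strand): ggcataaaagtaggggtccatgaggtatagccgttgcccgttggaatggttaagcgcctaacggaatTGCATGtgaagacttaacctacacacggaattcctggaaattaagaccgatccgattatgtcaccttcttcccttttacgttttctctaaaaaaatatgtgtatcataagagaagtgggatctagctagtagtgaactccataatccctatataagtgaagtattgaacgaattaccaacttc
LTPG2 chr3:15617310-15617559 (minus strand): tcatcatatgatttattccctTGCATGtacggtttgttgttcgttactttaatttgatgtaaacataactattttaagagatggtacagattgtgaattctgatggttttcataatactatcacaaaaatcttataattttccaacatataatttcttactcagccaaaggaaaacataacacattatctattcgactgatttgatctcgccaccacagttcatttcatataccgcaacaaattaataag
PDF1 chr2:17827649-17827898 (minus strand): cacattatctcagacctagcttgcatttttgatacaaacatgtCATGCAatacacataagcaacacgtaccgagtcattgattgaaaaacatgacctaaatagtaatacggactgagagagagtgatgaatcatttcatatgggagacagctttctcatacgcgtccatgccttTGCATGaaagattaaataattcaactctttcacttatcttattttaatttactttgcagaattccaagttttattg
PDF1 holds the motif at 2 places, 207 and 76 bases before the start, and the others at 1 place each. A match describes the letters of these windows and says nothing of binding. CATGCA was singled out from the motifs searched, whose other shares are given below.

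NIA2, ASN2 and RFNR2, genes of nitrogen metabolism, were also in this direction, and 2 of the 3 were lower in water at 24 h than at 6 h. The ratios of NIA2 and ASN2 at 6 h, 0.664 and 0.659, lay close to the limit of 0.67. NIA2 (AT1G37130), a nitrate reductase, was at 8.45, 5.62 and 6.24 CPM in water and 3.98, 3.99 and 5.51 CPM with ethylene at 6 h, and at 0.856, 0.944 and 1.03 and 7.08, 7.19 and 2.92 CPM at 24 h. Between these times it was nearly absent at 16 h in water, at 0.0526, 0.271 and 0.0943 CPM, and the ethylene 24 h libraries differed among themselves, replicate 3 being the lowest. ASN2 (AT5G65010), an asparagine synthetase, went from 7.16, 7.93 and 9.78 CPM to 58.8, 53.4 and 53.5 CPM with ethylene and from 11.8, 14.5 and 11.5 CPM to 15, 16.8 and 14.4 CPM in water. RFNR2 (AT1G30510), the root-type reductase that supplies ferredoxin with electrons, was at 53.7, 50.3 and 47.3 against 28.4, 33.2 and 31.5 CPM at 6 h and 16.1, 17.2 and 14.3 against 34.2, 37.1 and 33.5 CPM at 24 h, water first. Its level with ethylene was nearly the same at both times, while in water it was far lower at 24 h. At 16 h NIA2 was near the floor in both treatments, with means of 0.139 CPM in water and 0.534 CPM with ethylene, whereas ASN2 was at 38.4 CPM with ethylene. NIA2 and ASN2 were then higher with ethylene than in water (log2 fold changes 1.79 ± 0.63, adjusted p = 0.0327, and 1.09 ± 0.26, adjusted p = 0.00887, edgeR). Without the library labelled replicate 2 their values were 2.05 ± 0.75 (adjusted p = 0.0158) and 1.43 ± 0.08 (adjusted p = 2.2e-15). RFNR2 passed in that fit (log2 fold change 0.31 ± 0.09, adjusted p = 0.00262) and not with all libraries (0.18 ± 0.11, adjusted p = 0.189). Of 16 genes listed for nitrate assimilation 10 passed the level condition. Of these 3 had a ratio of at most 0.67 at 6 h, against 1.25% of all genes, and 8 a ratio of at least 1.5 at 24 h. The 3 are the chosen genes themselves, so nothing is read from their count. The others past the level condition had ratios at 6 h from 0.726 (NIR1) to 1.17 (RFNR1). At 16 h 6 of the 16 were called higher with ethylene and 0 lower (10 and 1 without that library). These counts stand beside 33.5% of all genes with such a ratio at 24 h, and 31.7% higher and 18.5% lower calls at 16 h (42% and 32.7% without that library).

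CKX5 (AT1G75450), a cytokinin oxidase that degrades cytokinins, differed from most of the 48 in that its level with ethylene was nearly the same at each time. It was at 14.9, 16.4 and 18.6 CPM at 6 h, 18.2 and 15.9 CPM in replicates 1 and 3 at 16 h and 14, 15.3 and 11.4 CPM at 24 h. In water it was at 26, 25.4 and 26.8 CPM at 6 h, 3.1, 2.17 and 1.93 CPM at 16 h and 4.71, 3.46 and 2.89 CPM at 24 h, so the water libraries started above and ended below. At 16 h it was higher with ethylene than in water (log2 fold change 2.18 ± 0.46, adjusted p = 0.00785, edgeR, and 2.65 ± 0.16, adjusted p = 5.78e-15, without the library labelled replicate 2). Reads on its opposite strand made up 43.1% of its reads, the largest share among the 76 genes, and were not counted here. GH3.1 (AT2G14960), of the family that conjugates auxin to amino acids, was 1.77-fold lower at 6 h (3.61, 3.41 and 2.61 against 5.94, 5.04 and 6.08 CPM) and 7.15-fold higher at 24 h (10.2, 11.8 and 8.2 against 1.11, 1.42 and 1.7 CPM).

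ATBFRUCT1 (AT3G13790), a cell wall invertase that splits sucrose, was at 16.9, 18.2 and 18.7 CPM in water and 10.2, 9.45 and 9.39 CPM with ethylene at 6 h. At 24 h it was at 16.5, 18 and 17.3 and 52.7, 56.6 and 66.5 CPM. At 16 h the 2 treatments overlapped, with 7.73, 7.65 and 6.37 CPM in water and 9.3 and 6.87 CPM in ethylene replicates 1 and 3, and the log2 fold change was 0.05 ± 0.12 (adjusted p = 0.749, edgeR), or -0.02 ± 0.14 (adjusted p = 0.889) without the library labelled replicate 2. TRE1 (AT4G24040), the trehalase, was 1.85-fold lower and then 2.3-fold higher. STP7 (AT4G02050), a sugar transporter, lay at the edge of the rule with 1.67-fold lower and 1.5-fold higher.

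The largest early differences of this direction were in genes of specialised metabolism and of less known function. CYP709B2 (AT2G46950), a cytochrome P450, was at 5.94, 7.58 and 8.63 CPM in water and 2.31, 1.57 and 1.87 CPM with ethylene at 6 h, a mean 3.85-fold lower, and at 12.7, 15 and 10.6 and 32.9, 36 and 31.2 CPM at 24 h. IGMT5 (AT1G76790), an O-methyltransferase of indole glucosinolates, was at 4.49, 5.92 and 7.48 and 1.99, 2.1 and 2.46 CPM at 6 h and at 42.6, 49.9 and 35.2 and 298, 281 and 294 CPM at 24 h. ASG8 (AT2G40475), an uncharacterised protein, was 2.62-fold lower and 3.24-fold higher. IGMT5 was higher at 24 h than at 6 h in both treatments, whereas ASG8 was lower in water, going from 6.85, 8.31 and 8.83 to 2.57, 2.62 and 1.44 CPM. Among the most abundant, scpl20 (AT4G12910), a serine carboxypeptidase-like protein, was at 70.2, 93 and 67.2 CPM in water and 332, 359 and 319 CPM with ethylene at 24 h, and AT1G73120, an F-box-type protein, at 55.2, 62.7 and 44.4 and 417, 447 and 472 CPM. AT5G11420, of unknown function, had its highest level at 16 h, 830.4 and 814 CPM in ethylene replicates 1 and 3 against 344, 263 and 200.3 CPM in water, and FP3 (AT5G63530), a farnesylated protein, was likewise highest there (248 and 256 against 133, 126 and 125 CPM).

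The remaining genes of this direction included HCD1, iqd17, GRXS13, AT3G43670 and AT3G14067. HCD1 (AT4G14440) was at 2.69 to 3.78 against 5.64 to 6.4 CPM at 6 h and 158 to 167 against 29.7 to 35 CPM at 24 h, ethylene first. The IQ-domain gene iqd17 (AT4G00820) was 1.79-fold lower and 4.86-fold higher, the glutaredoxin gene GRXS13 (AT1G03850) 1.91-fold and 5.44-fold. AT3G43670, a copper amine oxidase, was 1.51-fold lower and 4.35-fold higher, and AT3G14067, a subtilase, 1.61-fold and 5.09-fold. Apart from the genes named so far, the ratios of the 48 lay between 0.544 and 0.667 at 6 h and between 1.58 and 4.73 at 24 h.

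Over the 48 genes the median of the group means was 7.03 CPM in water at 6 h, 10.2 at 16 h and 14.2 at 24 h, and with ethylene 3.29, 19.3 and 38.7 CPM. The mean was higher at 24 h than at 6 h in 31 of the 48 genes in water and in 47 with ethylene, CKX5 being the exception. Ethylene at 24 h was the highest of the 7 groups in 41 genes, water at 6 h in 5 and ethylene at 16 h in 2. The lowest group was dry seeds in 36 and ethylene at 6 h in 10. Over all 13224 genes ethylene at 24 h was highest in 3928, and dry seeds were lowest in 8770 and ethylene at 6 h in 418. The mean was higher at 24 h than at 6 h in 5991 of them in water and in 6281 with ethylene. Since the rule used the 6 h and 24 h libraries, these places only describe the genes. Most of the 48 genes were thus higher at 24 h than at 6 h in both treatments, with the ethylene libraries going from the lower to the higher place.

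At 16 h most of the 48 genes had already turned. With all libraries edgeR called 33 higher with ethylene and 0 lower, against 31.7% and 18.5% of 18806 genes tested. In that fit 36 of the 48 had an unadjusted p under 0.05 in either direction, as had 11238 of the 18806 genes tested. DESeq2 called 33 higher and 1 lower, against 31.4% and 21.1% of all genes. With the library labelled ethylene 16 h replicate 2 left out, edgeR called 42 higher and 1 lower, against 42% and 32.7% of 19091 genes, and the 33 were among the 42. The median log2 fold change of the 48 was 0.86, and 1.12 without that library, beside 0.08 and 0.11 over all genes tested. The gene lower without that library was PROPEP4 (AT5G09980), the precursor of an elicitor peptide, at 8.29 and 8.54 CPM in ethylene replicates 1 and 3 against 10.9, 9.93 and 13.2 CPM in water. Its log2 fold change was -0.42 ± 0.17 (adjusted p = 0.0513, edgeR), and -0.62 ± 0.13 (adjusted p = 9.83e-05) without it, and it was higher with ethylene only at 24 h (24, 26.7 and 26 against 11, 13.7 and 11.7 CPM). FAR1, ATBFRUCT1, AT2G25980, AT3G13310 and AT4G30660 were called in neither fit. The count of genes called higher was 14 without ethylene replicate 1, 10 without ethylene replicate 3 and 19 without water replicate 3. In each of these fits 0 were lower. Over all genes tested 7.46, 5.39 and 16.3% were called higher there and 0.262, 0.194 and 1.74% lower.

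The largest rises at 16 h were in EXO, scpl20 and AT1G73120. EXO had 61.4 and 57.7 CPM in replicates 1 and 3 of ethylene and 3.95 CPM in the library labelled replicate 2, against 5, 3.8 and 5.52 CPM in water (log2 fold change 2.93 ± 0.63, adjusted p = 0.00785, edgeR, and 3.45 ± 0.16, adjusted p = 2.11e-17, without that library). For scpl20 these values were 421 and 429.9, 41.2 and 60.4, 39.3 and 26.3 CPM (2.66 ± 0.54, adjusted p = 0.00785, and 3.17 ± 0.15, adjusted p = 1.8e-17). For AT1G73120 they were 186 and 196, 21.4 and 27.8, 21.5 and 15.8 CPM (2.47 ± 0.50, adjusted p = 0.00785, and 2.97 ± 0.11, adjusted p = 1.55e-19). In each of them the library labelled replicate 2 lay within or near the range of water and replicates 1 and 3 far above it. The water 16 h libraries also differed among themselves, replicate 3 being the lowest for scpl20, AT1G73120 and EXPA2.

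**Figure D4:**
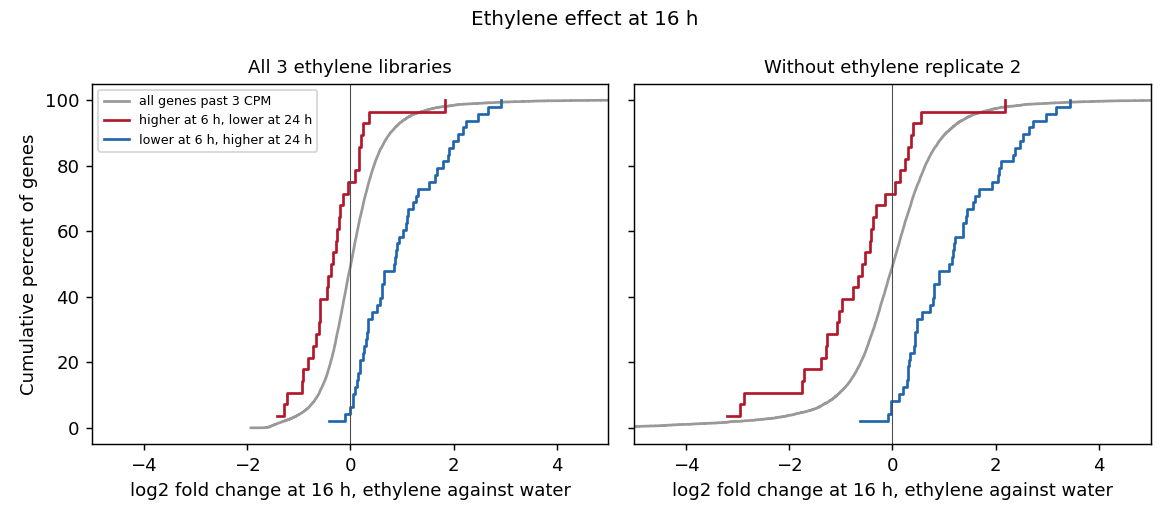
Cumulative percent of genes (vertical axis) by edgeR's log2 fold change at 16 h, ethylene against water (horizontal axis), with all 3 ethylene libraries (left) and without replicate 2 (right), for the 28 genes higher at 6 h, the 48 genes lower at 6 h and all genes past the level condition. The curve of the 28 lies mostly left and that of the 48 right of the curve of all genes.

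The 2 directions differed in the dry seed, whose libraries played no part in the choice. Of the 28 genes 27 (96.4%) had a mean of at least 3 CPM in dry seeds, and 0 lay under 1 CPM. Of the 48 genes 15 (31.2%) reached 3 CPM and 23 (47.9%) lay under 1 CPM. Over all 13224 genes 82.3% reached 3 CPM and 6.29% lay under 1 CPM, and the median was 13.3 CPM, beside 30.2 CPM for the 28 and 1.19 CPM for the 48. Among the most abundant in dry seeds were AT1G19530, at 434, 472 and 458 CPM, and FDH, at 329, 299 and 345 CPM. At the other end UMAMIT30 (AT4G01450), a transporter gene of the UMAMIT family, had 0 reads in 3 dry libraries, and EXPA2, EXO, FAR1 and IGMT5 had means of at most 0.0708 CPM there. Nearly all of the 28 genes thus had transcripts in dry seeds at 3 CPM or more, as did most genes, while the 48 reached that level less often. Some of the 48 were well above it, as LTPG1 with a mean of 73.8 CPM. The 48 also had a lower median in water at 6 h, 7.03 CPM beside 27.4 CPM for all genes.

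**Figure D5:**
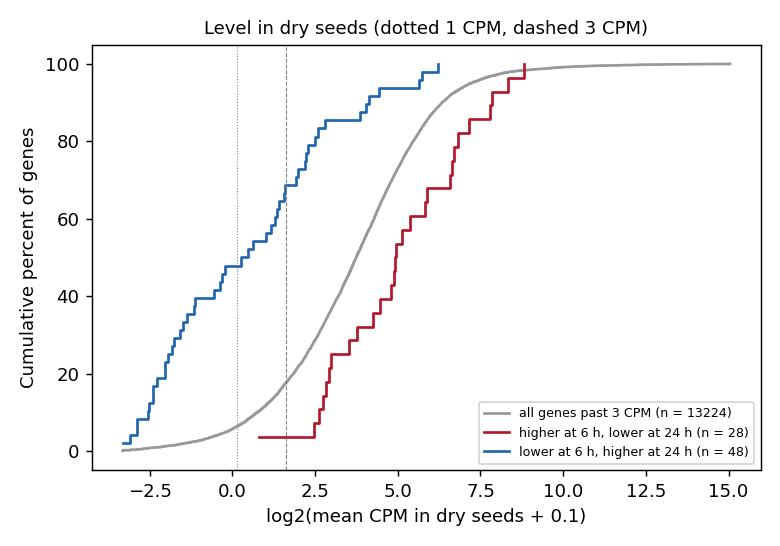
Cumulative percent of genes (vertical axis) by the log2 of the mean level in dry seeds plus 0.1 CPM (horizontal axis, 3 libraries), for both directions and all genes past the level condition. Dotted and dashed lines mark 1 and 3 CPM, and the curve of the 28 lies right and that of the 48 left of all genes.

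Water at 16 h was compared with dry seeds to place the 2 directions in imbibition without ethylene. Of the 28 genes edgeR called 20 lower and 6 higher in water at 16 h, against 39.4% and 45.9% of 17782 genes tested. Of the 48 genes it called 33 higher and 8 lower. These counts depended on scaling, because the default scaling by trimmed mean of M-values (TMM) moved the median log2 ratio of water 16 h over dry from 1.11 to 0.10. With scaling by library size alone 13 of the 28 were lower and 11 higher, and 42 of the 48 higher and 4 lower, against 18.1% and 72.8% of all genes. The calls of 3 genes in each direction turned from lower to higher, ERF2 and LTPG1 among them. PIL2, MFT, XTH11 and FAH1 of the first direction were higher in water at 16 h under both scalings (351, 411 and 421 against 61.1, 59.1 and 56.2 CPM for PIL2), and SAUR36, NAC102, SEH, FDH and ERF-1 were lower under both. In the second direction the 33 genes called higher were higher under both, with EXPA2 (76.8, 49 and 30.3 CPM at 16 h) and ASN2 (17.7, 16.2 and 14.8 against 0.213, 0.111 and 0.215 CPM) among them.

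Because the choice used means of 3 libraries, it was repeated with 2 of the 3 replicate numbers, and the direction was then read in the libraries left out. For the direction higher at 6 h and lower at 24 h, 30, 30 and 33 genes were chosen without replicate 1, 2 and 3, and 29, 29 and 33 of them had the same direction at both times in the libraries left out. Over all genes past the level condition 21.9, 19.4 and 19.3% had these directions there. In the other direction 57, 58 and 51 genes were chosen and 55, 53 and 50 kept both directions, beside 23.4, 24.1 and 22.1% of all genes. The median ratio in the libraries left out was 1.84 to 1.86 at 6 h and 0.240 to 0.316 at 24 h for the first direction, and 0.646 to 0.6698 and 2.30 to 3.85 for the second. Early differences were thus smaller than late ones in both directions, and in the second they lay close to the limit of 0.67.

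At the edges of the rule, MYB31 (ratios 2.97 and 0.668 at 6 h and 24 h), AT1G19230 (1.51 and 0.620) and AT1G21400 (1.51 and 0.0655) lay just inside the first direction. AT1G06840 (1.497 and 0.617), HAI2 (1.49 and 0.195) and AT3G56570 (1.48 and 0.676) lay just outside. For the second direction STP7 (0.597 and 1.5), AT3G61160 (0.667 and 4.06) and AT3G13310 (0.664 and 2.05) lay inside, and SUC2 (0.674 and 2.07), AT1G16500 (0.675 and 3.55) and MES3 (0.677 and 2.05) outside.

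Promoter windows of 250 bases were searched on both strands for further motifs, by their letters alone. The EIN3-type letters ATGTAT stood in 10 of the 28 promoters (35.7%) and 16 of the 48 (33.3%), against 22.1% of 13218. The abscisic acid response core ACGTGT stood in 7 (25%) and 9 (18.8%) against 11.7%, and the G box CACGTG, which can overlap it, in 2 (7.14%) and 7 (14.6%) against 8.13%. The letters TGGGCC, known from promoters of growth-related genes, stood in 0 of the 28 and 5 of the 48 (10.4%) against 20.2%, and the GCC box GCCGCC in 1 and 0 against 2.17%. TGGGCT stood in 2 (7.14%) and 4 (8.33%) against 17.1%, and ACGTGG in 3 (10.7%) and 9 (18.8%) against 9.39%. Shares of AAATATCT were 7.14% and 8.33% against 4.6%, and of AAACCCTA 3.57% and 4.17% against 4.19%. TTGACC had 10.7% and 8.33% against 11.8%, and TTGACT 17.9% and 12.5% against 17.9%. For TAAATGCA they were 0 and 2.08% against 1.41%, and for TAAATGTA 3.57% and 0 against 2.91%. Annotated single-exon genes made up 5 of the 28 (17.9%) and 8 of the 48 (16.7%), near the 13.1% of all genes.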

How the data were processed

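RNA was measured in 21 stranded polyA libraries of wild type seeds, read from 1 end, per the labels' protocols, and each library's group and replicate number came from its title. Unnormalised read counts for each gene were deposited, made by the authors with STAR against TAIR10, per the submitters' processing notes. The version, the annotation and any trimming are not given in the sources used here. Each file held 3 counts per gene, per the file headers, and the reverse counts, which hold the sense reads of this kit, were used. Forward counts were 2.72 to 5.41% of both. The 4 summary lines of a library were left out (multimapping 1.44 to 2.47%, no gene 0.752 to 2.78%, ambiguous 0.0776 to 0.166%, unmapped 0.209 to 2.04% of reads). Reads on near-identical gene copies were lost as multimapping, so such genes are uncertain.

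CPM were computed from the counts with library size alone. Two-sided tests used edgeR 4.0.16 (quasi-likelihood, TMM scaling, expression filter with minimum count 10 and total 15, Benjamini-Hochberg adjustment over all genes tested, FDR 0.05) in R 4.3.3, in a fit of the 18 imbibed libraries and another of the 12 dry and water libraries. SEs of log2 fold changes were approximated from the F statistic, as the fold change divided by its root. DESeq2 1.42.0 was an alternative, and the script was tested on simulated data. The simulated counts had the same small spread for each gene and no library that stood apart from its label. That test therefore cannot speak for the 16 h fit with all libraries. The 76 genes and the gene lists were chosen with earlier results of these data known. Genes were named by a rule (the 12 with a symbol and the largest smaller ratio, the most abundant, those called at 16 h with the smallest adjusted p, list members and those at the edge of the rule), which gave 24 and 30 genes, and others named were picked after their values were seen. The reference table matched 37051 gene identifiers and 76 of the 76 genes. Promoter windows came from RefSeq TAIR10.1 by locus tag, since the count files hold no coordinates, and no protein sequences were used here. Replicate numbers were not used as pairs in the main fits. Same-numbered ethylene and water 16 h libraries deviated from their group means with correlations of 0.549, 0.121 and -0.511 across genes, and water 16 h and dry libraries with 0.0522, 0.0348 and 0.0194. The library labelled ethylene 16 h replicate 2 weighs on the former values, and these correlations cannot decide whether same-numbered libraries were paired.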

Additional observations from a re-analysis of the deposited data

How the results depend on the processing

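With a level condition of 1 CPM 41 genes were higher at 6 h and lower at 24 h and 98 the reverse, and with 10 CPM 20 and 16. Ratio limits of 2 and 0.5 gave 11 and 5 genes, and limits of 1.3 gave 53 and 125. Leaving out 1 library at a time gave 27 to 34 and 45 to 55 genes, of which 26 to 28 and 41 to 48 were among the 76. TMM-scaled CPM gave 35 and 38 genes, 28 and 38 of them shared. TMM scaling moved the median log2 ratio of ethylene over water at 24 h from 0.16 to -0.19. The median for ethylene at 24 h over ethylene at 6 h went from -0.07 to -0.46. Ratios at 24 h and their shares over all genes thus depend on the scaling. So do the levels with ethylene called nearly the same at both times, as in AT1G36060, RFNR2 and CKX5. At 16 h the 6 libraries of that time alone gave 0 calls of the 28, 0 of the 48 and 0 of all 16844 genes tested. In that edgeR fit 1 of the 28, 21 of the 48 and 3267 of all genes had an unadjusted p under 0.05. An FDR of 0.01 left 1 higher and 0 lower of the 28 and 18 higher of the 48. Over all genes it left 11.7% higher and 0.542% lower. DESeq2, RLE size factors and the replicate block each called 1 of the 48 lower, against 21.1, 19.5 and 19.5% of all genes. The block, made of the replicate numbers, called 32 of the 48 higher and 2 higher and 15 lower of the 28. Over all genes it called 30.1% higher and 19.5% lower. Leaving out each 16 h library gave 1 to 7 higher and 0 to 19 lower of the 28. Of the 48 it gave 10 to 42 higher and 0 to 1 lower. Over all genes these fits gave 5.39 to 42% higher and 0.194 to 32.7% lower. For water 16 h against dry seeds, library size scaling gave 11 higher and 13 lower of the 28 and 4 lower of the 48. Over all genes it gave 72.8% higher and 18.1% lower. Leaving out a library gave 6 higher and 18 to 21 lower of the 28, and 32 to 33 higher and 7 to 9 lower of the 48. Over all genes these fits gave 44 to 44.8% higher and 38.2 to 38.6% lower. The replicate block there gave 6 and 20, and 33 and 8, against 45.8% higher and 39.3% lower of all genes. With library size scaling the dry-seed log2 fold change turned from a call of lower to one of higher in AT1G36060 (0.90), AT5G06570 (0.35), ERF2 (0.74), LTPG1 (0.93), AT2G20724 (0.42) and AT2G32970 (0.46), and from negative to positive with a call at one side or none in AT1G15125 (0.0479), AT1G19230 (0.15), AT1G77100 (0.87), AT2G39210 (0.0174), NIA2 (0.32) and GH3.1 (0.80). That scaling was chosen after seeing the data. At 16 h it turned the sign of uncalled values in ERF-1 (0.082), AT2G25980 (0.0232) and AT4G30660 (0.11). CKX5 against dry seeds, uncalled, was at -0.000631 with DESeq2 and -0.000862 with RLE size factors. Leaving out a library gave an uncalled value of the other sign, where the value with all libraries was uncalled too, in MYB31 (-2.23e-05 to 0.36), ERF-1 (-0.12 to 0.0567), AT2G25980 (-0.18 to 0.00674), AT3G13310 (-0.0355 to 0.14), ATBFRUCT1 (-0.0242 to 0.18), AT4G30660 (-0.0504 to 0.0221), GATA3 (-0.0855 to 0.32) and FAR1 (-0.0473 to 0.35) at 16 h and CKX5 (-0.16 to 0.18) and AT5G55050 (-0.00543 to 0.23) against dry seeds. The highest values of MYB31 and GATA3, without ethylene 16 h replicate 2, were called higher. The cause of the turned signs and lost calls was not tested. The biological coefficient of variation at 16 h was 0.187 with the library labelled ethylene 16 h replicate 2 and 0.0436 without it.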
